A study of Homo sapiens with 9 samples.

Results

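Of the 8321 DDX21 peaks called in DMSO-treated A375 cells, 4244 also overlapped, by at least 1 bp, a DDX21 peak in cells given A771726 and a DDX21 peak in cells given A771726 with nucleotides. These 4244 regions were chosen by that overlap alone and make up 51.0% of the DMSO list (95% interval 49.9 to 52.1). They are the DDX21 sites present under all 3 treatments and are called the shared sites here. The 6 peak lists of the series hold 27469 peaks. The values that chose the shared sites are the peak calls of the 3 DDX21 lists, so their strength in those lists is described without a test. The other 4077 DMSO peaks comprise 2936 with a peak with nucleotides and none with A771726, 9 with a peak with A771726 and none with nucleotides, and 1132 with neither.

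DDX21 is a DEAD-box RNA helicase of the nucleolus, where it takes part in ribosomal RNA transcription and processing. Outside the nucleolus it has been described at promoters read by RNA polymerase II, where it binds the 7SK small nuclear RNA complex that holds P-TEFb inactive. CDK9 is the kinase of P-TEFb and phosphorylates RNA polymerase II during the passage from pausing to elongation. A771726, the active form of leflunomide, blocks dihydroorotate dehydrogenase and so the synthesis of pyrimidine nucleotides from simple precursors.

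All groups were A375 cells, an established human melanoma line grown in the same medium, treated for 24 h. DDX21 was immunoprecipitated from cells given DMSO, 25 µM A771726, or 25 µM A771726 with nucleotides, whose kind and dose the labels do not state. CDK9 was immunoprecipitated from the same 3 treatments. Peak lists hold no marker levels, so the identity of the cells rests on the labels. There was 1 library for each combination of antibody and treatment. Differences between treatments therefore have no replicate check, and no p-value is given. Both treated libraries are compared with the same DMSO library. The design sets DDX21 occupancy with pyrimidine synthesis blocked, without and with nucleotides supplied, against that in DMSO-treated cells.

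The pileup is the number of fragments covering a peak's summit, and the background is the number the peak caller's local estimate expected there. Both were recovered from the deposited fold enrichment and −log10 p. No pileup exceeded 256 fragments (DMSO), 232 (A771726) and 262 (nucleotides), which is exactly 2 times the shortest peak of each list and is called the highest possible pileup here. Depth relative to DMSO, estimated as the lowest background of a list over its shortest peak, was 1.06 with A771726 and 0.884 with nucleotides. The ratios below are of pileups as they stand, and the 95% intervals of medians and shares take sites to be independent and reflect the spread over sites, while those of single ratios reflect counting error. Neither covers variation between libraries.

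With A771726 the DDX21 pileup on these sites lay well under that in DMSO, and with nucleotides it lay close to DMSO. The pileup in DMSO ran from 16 fragments at the weakest site to 256, with a median of 129. With A771726 it ran from 10 to 232, with a median of 47. With nucleotides it ran from 12 to 262, with a median of 120. The ranges of the 3 libraries overlap across sites, whereas within a site A771726 gave the lowest of the 3 pileups at 4202 of 4244 sites. The highest possible pileup was lower with A771726, at 232 against 256 (DMSO) and 262 (nucleotides). Sites with over 232 fragments in both other libraries could therefore only be lowest with A771726. In DMSO, 516 sites lay at 90% or more of the highest possible pileup. The pileup with A771726 was below DMSO at 4216 sites, or 99.3%, beside 99.3% of all DMSO peaks with an A771726 peak, which are almost the same regions.

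The median ratio of A771726 to DMSO pileup was 0.400 (95% interval 0.395 to 0.404), with quartiles of 0.333 and 0.487. At 3265 sites the pileup was under 0.5 of the DMSO value, a share of 76.9%, beside 76.8% of all DMSO peaks with an A771726 peak. The median ratio of nucleotides to DMSO was 0.957 (0.952 to 0.961), with quartiles of 0.873 and 1.02. The pileup with nucleotides lay between 0.8 and 1.25 times DMSO at 3668 sites, and the pileup with A771726 did so at 134. These 2 counts were not made over all DMSO peaks. The 2936 sites with a nucleotides peak and no A771726 peak had a median nucleotides ratio of 0.919 (0.911 to 0.929). A ratio near 1 with nucleotides was thus not particular to the shared sites. Only 3 sites had under 0.5 of the DMSO pileup with nucleotides, beside 0.237% of all DMSO peaks with a nucleotides peak, and 6 had over 2 times, beside 0.752%. With nucleotides 65.1% of sites were below DMSO, beside 64.0% of all DMSO peaks with a nucleotides peak, but when each pileup was scaled to its library's lowest background 33.5% were below and the median ratio was 1.06, so the side of DMSO on which they lie depends on the scaling. With the same scaling the ratio for A771726 was 0.418.

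**Figure D1:**
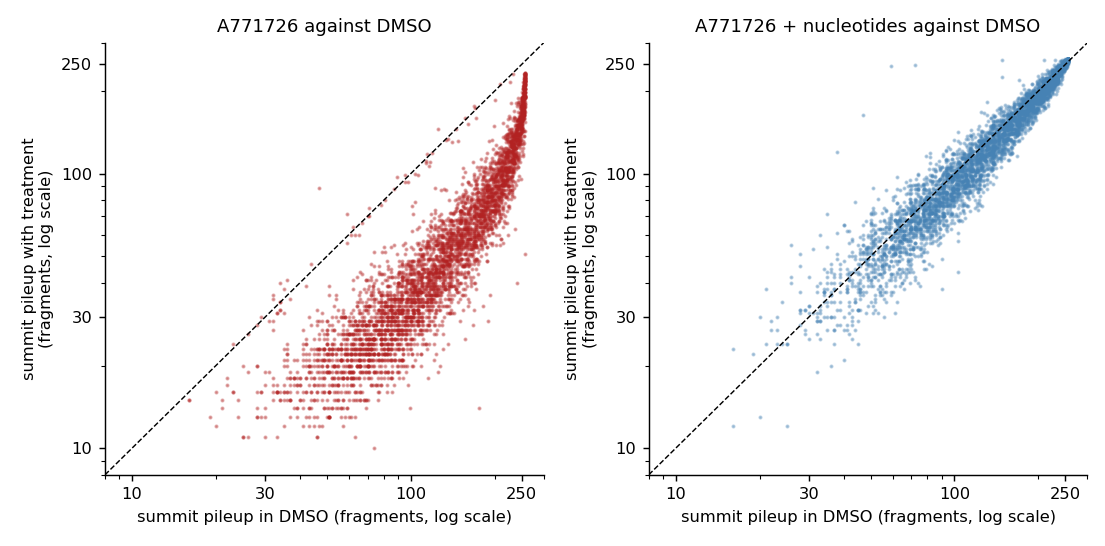
Summit pileup at each of the 4244 shared sites with A771726 (left) and with A771726 and nucleotides (right) against DMSO, on log axes; each point is a site and the dashed line marks equal values. With A771726, 4216 sites lie below the line, while with nucleotides the points lie along it with a median ratio of 0.957.

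The 5 sites with the best worst rank of fold enrichment over the 3 lists stood near the top under every treatment, ranks being taken among the 4244 sites. The first lay on chromosome 2 from 242447856 to 242448463 in hg19, the build of every position given, with ranks 19 (DMSO), 8 (A771726) and 30 (nucleotides). Its pileups were 251, 168 and 259 fragments in the same order. The others lay on chromosome 18 from 71815453 to 71816085, on chromosome 4 from 2420469 to 2420854 and from 2537877 to 2538450, and on chromosome 6 (43596933 to 43597735). All 5 were lower with A771726 than in DMSO, with ratios from 0.554 to 0.669, and close to DMSO with nucleotides, with ratios from 0.970 to 1.04. All 5 DMSO pileups were at 90% or more of the highest possible, and those with nucleotides ran from 226 to 259 of 262. The counting interval of the first ratio was 0.547 to 0.817, so a high rank with A771726 stood beside a lower pileup. None of the 5 overlapped a CDK9 peak, and only 8.81% of all shared sites did so in DMSO. With so few sites this does not set the 5 apart.

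The ratio for A771726 was lowest at sites of middle strength and higher at both ends. By deciles of DMSO −log10 q among the shared sites, the weakest decile had a median pileup of 50 fragments in DMSO and 22 with A771726, and a median ratio of 0.447 (0.436 to 0.462). The third decile had 84 and 28 fragments and a ratio of 0.343 (0.333 to 0.352). The strongest decile had 238 and 133 fragments and a ratio of 0.565 (0.547 to 0.578). The weakest sites could enter only if their A771726 pileup passed the peak caller's threshold. At the other end, 279 of 425 sites of the strongest decile lay at 90% or more of the highest possible DMSO pileup, and 516 sites did so in all. Without those 516 the median ratio over the rest was 0.382. For nucleotides the decile medians ran from 0.9075 in the fifth to 1.000 in the weakest.

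**Figure D2:**
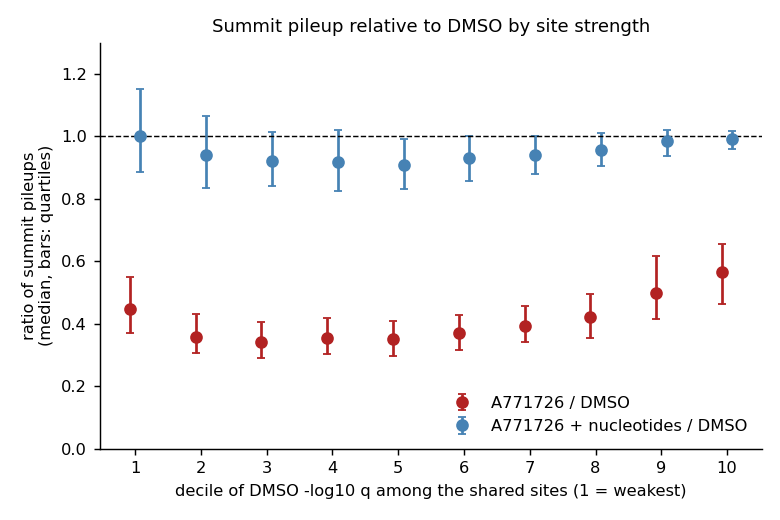
Median ratio of summit pileup to DMSO (points) with quartiles (bars) in each decile of DMSO −log10 q among the shared sites, for A771726 and for A771726 with nucleotides; the dashed line marks equality. The A771726 medians run from 0.343 to 0.565, and those with nucleotides from 0.9075 to 1.000.

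The ratio for A771726 was higher at sites of higher background. In 1474 sites with a DMSO background under 5 fragments, the median ratio was 0.373 (0.366 to 0.378). It was 0.404 (0.398 to 0.411) in 2179 sites with a background of 5 to 10, and 0.462 (0.448 to 0.478) in 557 sites with 10 to 20. In the 34 sites with 20 or more it was 0.906 (0.752 to 0.985). Those 34 had median pileups of 156 fragments (DMSO), 133.5 (A771726) and 153.5 (nucleotides), on median backgrounds of 26.6, 30.8 and 27.8. With the background subtracted from each pileup their median ratio was still 0.845, against 0.351 in the sites with the lowest backgrounds. Their fold enrichments were low throughout, with medians of 5.56, 3.90 and 4.99. Of the 134 sites between 0.8 and 1.25 times DMSO, 23 had a DMSO background of 20 or more and 62 one under 10. These were 23 of the 34 sites with such a high background and 1.70% of the 3653 sites under 10. The part of the background in these pileups was not tested.

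The 5 highest ratios among sites with a DMSO pileup at or above the median were all at high background. On chromosome 17 from 33478049 to 33478360 the pileup was 169 fragments (DMSO), 177 (A771726) and 170 (nucleotides), on backgrounds of 25.2, 44.8 and 36.8. On chromosome 5 from 71146670 to 71147015 it was 209, 213 and 211, on backgrounds of 28.1, 37.6 and 35.6. The other 3 lay on chromosome 1 from 156186196 to 156186675, on chromosome 12 (20704297 to 20704570) and on chromosome 2 (230045415 to 230045708). Their ratios to DMSO ran from 1.01 to 1.05 over all 5, and every counting interval included 1. A difference between A771726 and DMSO was thus not detectable at this depth, and all 5 had a DMSO background of at least 25.2 fragments, against a median of 5.76 over the shared sites. Over all strengths, 22 sites had a higher pileup with A771726 than in DMSO, with a median DMSO background of 13.0 and a lower quartile of 6.48.

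The highest ratio of all, 1.89 (1.32 to 2.76), was on chromosome 15 from 65809520 to 65809777, with 47, 89 and 163 fragments in the order DMSO, A771726, nucleotides. There the A771726 peak and the nucleotides peak each overlapped 2 DMSO peaks, and their summits lay 356 and 343 bp from the DMSO summit, so the values belong to different points of a longer stretch. All 6 sites with over 2 times the DMSO pileup with nucleotides likewise had a nucleotides peak that overlapped 2 DMSO peaks. The next highest A771726 ratios, chosen after their values were seen, had single partners. On chromosome 9 from 35657729 to 35657913 the pileups were 59, 71 and 50, a ratio of 1.20 (0.840 to 1.73). This site overlapped a CDK9 peak with A771726, of 19 fragments, and no CDK9 peak in the other 2 treatments.

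Again among sites at or above the median DMSO pileup, the 5 lowest A771726 ratios divided into sites with a single A771726 peak and sites with 2. On chromosome 9 from 42019164 to 42019717 the pileup was 156 fragments (DMSO), 25 (A771726) and 140 (nucleotides), a ratio of 0.160 (0.101 to 0.245). On chromosome 9 from 46687334 to 46687871 it was 167, 28 and 142, a ratio of 0.168 (0.108 to 0.251). Both had 1 A771726 peak, with a summit 37 and 10 bp from that in DMSO, and the ratios with nucleotides were 0.897 and 0.850. The other 3 of these 5 had 2 A771726 peaks each, and the one with the longer overlap was not the one nearest the DMSO summit. On chromosome X from 47225411 to 47225969 the peak with the longer overlap had 14 fragments, a ratio of 0.0795, and the one nearest the DMSO summit had 53, a ratio of 0.301. On chromosome 17 from 5322801 to 5323671 the ratio was 0.153 by longest overlap and 0.307 by nearest summit. On chromosome 2 from 86332536 to 86333549 these were 0.167 and 0.621.

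With nucleotides, the departures from DMSO were smaller. Among sites with a DMSO pileup at or above the median, the lowest ratio was 0.667 (0.506 to 0.874), on chromosome 16 from 25042681 to 25043263, with 138, 31 and 92 fragments in the order DMSO, A771726, nucleotides. Next was the chromosome 1 site from 16992797 to 16993595, with 131, 55 and 88 fragments. The remaining sites were on chromosome 11 (31391243 to 31391505), chromosome 18 (43684082 to 43684410) and chromosome 2 (26100222 to 26100581), and ratios ran up to 0.695. At each of these 5 the pileup with nucleotides lay between those of A771726 and DMSO. The highest ratio, 1.75, was on chromosome 3 (14165745 to 14166056), and the second, 1.52, on chromosome 1 (115300468 to 115300854). In both, the nucleotides peak was over 1000 bp wide, overlapped 2 DMSO peaks and had its summit 525 and 513 bp away. Among sites with a single DMSO peak on the partner, the highest was 1.39 (1.10 to 1.75), on chromosome 1 from 47799597 to 47800318, with 131, 66 and 182 fragments.

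Peaks at the shared sites were narrower with A771726 and slightly wider with nucleotides. The median width in DMSO was 399 bp (392 to 405). It was 244 bp (240 to 248) under A771726, and 436 bp (428 to 442) once nucleotides were added. The widest peaks had 1857, 1250 and 2333 bp. Peaks were narrower with A771726 than in DMSO at 4172 sites, beside 98.3% of all DMSO peaks with an A771726 peak. With nucleotides 1325 were narrower than in DMSO, or 31.2%, beside 37.5% of all DMSO peaks with a nucleotides peak. The A771726 peak lay wholly inside the DMSO peak at 3856 sites, a share of 90.9% (89.9 to 91.7). Its edges moved inward by a median of 63 bp at the lower coordinate and 63 bp at the higher, so the narrowing had no side. The DMSO peak lay wholly inside the nucleotides peak at 1759 sites, and the reverse held at 601. Counts of peaks lying inside one another were not made over all DMSO peaks.

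Narrowing was strongest at the weaker sites. The median ratio of A771726 to DMSO width was 0.639 over all shared sites, 0.518 in the second decile of DMSO −log10 q and 0.736 in the strongest. In the second decile the DMSO median of 341 bp stood against 168 bp under A771726, and 374 bp where nucleotides were added. In the strongest decile they were 562, 397 and 615 bp. A peak's width depends on where its signal falls under the calling threshold, so width and pileup are not separate readouts of a site. The shortest peak that a list held was 128, 116 and 131 bp.

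**Figure D3:**
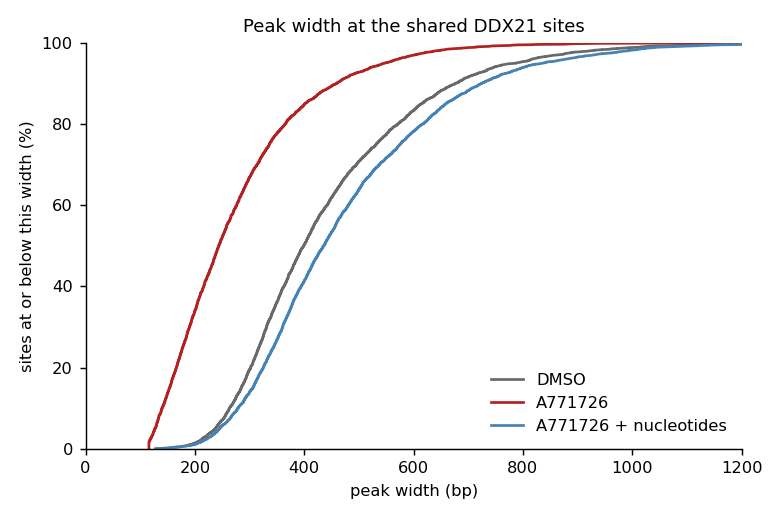
Share of the 4244 shared sites (percent) whose peak is at or below a given width (bp), 1 curve per DDX21 library. The A771726 curve lies to the left, with a median of 244 bp against 399 bp in DMSO and 436 bp with nucleotides.

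DDX21 summits lay within 50 bp of the DMSO summit at most sites. The rule used no summit, but overlap of peaks this narrow already keeps summits close, so the distances are a description. The median distance between summits was 12 bp (11 to 12) from DMSO to A771726, 9 bp (9 to 10) from DMSO to nucleotides and 12 bp (12 to 13) from A771726 to nucleotides. Summits lay within 50 bp of DMSO at 93.7% of sites with A771726 (92.9 to 94.4), beside 93.6% of all DMSO peaks with an A771726 peak. With nucleotides they did so at 95.9% of sites (95.3 to 96.5), beside 89.3% of all DMSO peaks with a nucleotides peak. Offsets had no preferred side: of 4146 sites whose A771726 summit was displaced, 2112 were displaced to lower coordinates. The distance grew smaller with strength, from a median of 21 bp in the weakest decile to 8 bp in the strongest with A771726, and from 16 to 7 bp with nucleotides.

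**Figure D4:**
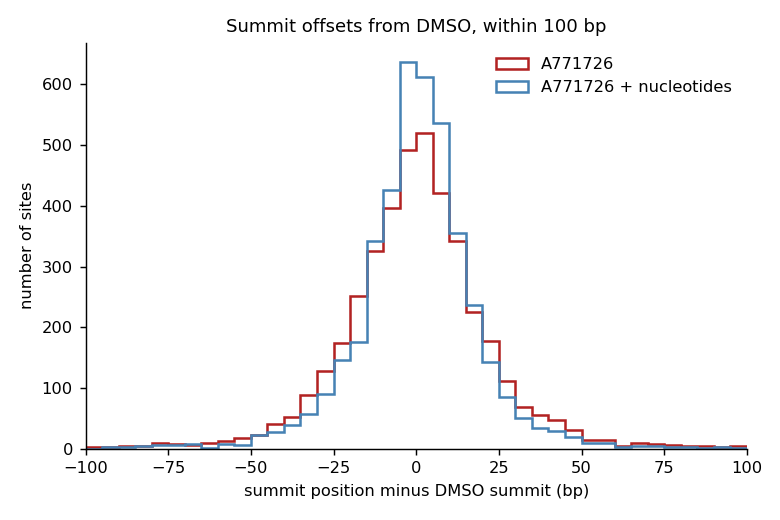
Number of shared sites by the distance (bp) of the A771726 and the nucleotides summit from the DMSO summit, in steps of 5 bp and shown within 100 bp on each side. Both distributions centre on 0, with median absolute distances of 12 and 9 bp.

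Many of the long summit displacements were at sites that held more than 1 A771726 peak. With A771726 the summit lay over 250 bp from that in DMSO at 45 sites, and 24 of these had 2 or more A771726 peaks. When the A771726 peak nearest the DMSO summit was taken, 22 sites remained over 250 bp. The largest displacement, 845 bp, was at the widest site, on chromosome 11 from 64037267 to 64039123, with 255, 163 and 262 fragments. Its second A771726 peak had 192 fragments and a summit 26 bp from DMSO. On chromosome 17 from 27278328 to 27279733 the displacement was 722 bp and the ratio 0.199 by longest overlap, and 29 bp and 0.891 by nearest summit. On chromosome X from 153236273 to 153237816 and at the chromosome 2 site starting at 86332536 the displacements of 663 and 615 bp became 5 and 14 bp. Only 1 of the 5 largest displacements had a single A771726 peak. It lay on chromosome 12 from 53894334 to 53895553, a peak of 1220 bp in DMSO, with 216, 93 and 199 fragments and summits 620 bp from DMSO with A771726 and 9 bp with nucleotides.

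A minority of sites held several A771726 peaks, and they were more often wide in DMSO. In all, 90 shared sites held 2 or more A771726 peaks (2.12%, 1.71 to 2.60), and the most on a site was 4. Their median DMSO width was 760.5 bp (714 to 852). With nucleotides 89 of the 90 had a single peak, as did nearly all shared sites, of which 18 of 4244 (0.424%) had 2 or more. Of 52 sites at least 1000 bp wide in DMSO, 17 held 2 or more A771726 peaks, a share of 32.7% (20.3 to 47.1), against 1.74% (1.37 to 2.18) of the narrower ones. The other 2 of the widest 5 stayed single. On chromosome 16 from 30933494 to 30935016 the pileups were 256, 231 and 262, each at or next to the highest possible, on widths of 1523, 1250 and 1396 bp. On chromosome 19 from 50379400 to 50381161 they were 234, 105 and 244. Joining was seen with nucleotides: 82 shared sites had a nucleotides peak that overlapped 2 DMSO peaks, against 2 sites with such an A771726 peak. How often this occurred over all DMSO peaks was not counted.

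The order of the sites was largely kept between libraries in pileup and less so in fold enrichment, which the authors' peak caller gave as a ratio to the local background. Across the 4244 sites, Spearman's rho of pileup was 0.930 between DMSO and A771726 and 0.974 between DMSO and nucleotides. For fold enrichment rho was 0.733 and 0.790. These are descriptions across sites that share libraries, backgrounds and depth. Median fold enrichments, each relative to its own library's background, were 18.8 (DMSO), 9.51 (A771726) and 17.9 (nucleotides). The listed fold was lower with A771726 than in DMSO at 3855 sites, or 90.8%, beside 90.7% of all DMSO peaks with an A771726 peak. With nucleotides it was lower at 2396, or 56.5%, beside 56.8% of all DMSO peaks with a nucleotides peak. Median backgrounds were 5.76, 3.998 and 6.04 fragments.

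The largest gains and losses of rank by fold enrichment went together with the background as well as the pileup. On chromosome 1 from 1406857 to 1407248 the rank was 3666 in DMSO and 680 with A771726, while the pileup was 149 fragments in DMSO and 67 with A771726. Its background was 14.4 in DMSO and 2.40 with A771726. On chromosome 19 from 13885033 to 13885427 the rank was 3337 and 572, with pileups of 254 and 209 on backgrounds of 20.9 and 8.80. The sites on chromosome 19 (2328481 to 2328758) and on chromosome 17 (19091294 to 19092128) also had lower pileups with A771726, of 37 against 69 and 80 against 137 fragments. A better rank thus stood beside a lower pileup and a lower background at all 4, and the fifth gain was the chromosome 15 site with the joined peak.

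Among losses, chromosome 11 from 919131 to 919412 went from rank 528 to 3886, with pileups of 78 and 31 on backgrounds of 1.29 and 6.40. On chromosome 16 from 9233776 to 9234069 the rank went from 540 to 3768, with pileups of 132 and 48, a ratio of 0.364 near the median of all sites, on backgrounds of 2.88 and 9.60. On chromosome X from 119077584 to 119077896 it went from 761 to 4134, with 124 and 36 fragments. All 3 had a higher background with A771726 than in DMSO. A lower ratio than most was seen on chromosome 19 from 5452936 to 5453211, with 109, 22 and 86 fragments and a ratio of 0.202 (0.122 to 0.321). Its background was also higher with A771726, at 4.80 against 2.58 in DMSO. The remaining loss was the chromosome X site starting at 47225411, which held 2 A771726 peaks. Its background was lower with A771726, at 2.40 against 3.60.

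The level with A771726 was similar over the chromosomes. The median ratio per chromosome ran from 0.365 (0.348 to 0.394) in the 80 sites of chromosome 22 to 0.437 (0.395 to 0.480) in the 40 sites of chromosome 21, leaving out chromosome Y. Chromosome 19, with the most shared sites at 485, had 0.427 (0.412 to 0.444), and chromosome 1, with 435, had 0.417 (0.398 to 0.431). Chromosome X, where 38.5% of DMSO peaks were shared, had 0.370 (0.341 to 0.426), and chromosome 20, where 61.0% were, had 0.407 (0.391 to 0.450). The 9 sites of chromosome Y had a median of 0.946 with an interval from 0.359 to 1.000, too wide to place them, at a median DMSO background of 4.32. The interval for chromosome 22 did not overlap that of chromosome 19.

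Close neighbours were rarer at shared sites than at the other DMSO peaks. The nearest other DMSO summit was a median of 43924.5 bp away, against 48436 bp for the other DMSO peaks, but lay within 1000 bp at 7.47% of shared sites (6.70 to 8.30) against 14.9% (13.9 to 16.1) of the others. Of the 609 other peaks with such a close neighbour, 209 had a shared site as that neighbour. The shared sites had a median background of 5.76 fragments in DMSO, 4.74 times the lowest of the list, against 4.33 fragments at the other peaks. Their median width of 399 bp and fold enrichment of 18.8 stood against 216 bp and 5.77 in the others, values that follow from a choice by presence in 3 lists.

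CDK9 peaks lay on a minority of shared sites, somewhat more often than on the other DDX21 peaks. The CDK9 lists themselves differ in length, with 3462 peaks (DMSO), 290 (A771726) and 3099 (nucleotides), or 8.38 A771726 peaks per 100 in DMSO, and counts of sites on CDK9 are to be read against these lengths. In DMSO, 374 shared sites overlapped a CDK9 peak, or 8.81% (7.98 to 9.71), beside 7.38% of all DMSO DDX21 peaks and 5.89% (5.18 to 6.65) of those not shared. With A771726 it was 35 sites, or 0.825% (0.575 to 1.15), beside 0.481% of all DMSO DDX21 peaks. With nucleotides it was 275 sites, or 6.48% (5.76 to 7.26), beside 5.31%. The CDK9 libraries had no part in choosing the sites. Shared sites were wider, but counting a CDK9 summit within 250 bp gave nearly the same shares in DMSO, 8.46% of shared and 5.98% of other peaks. The share of other peaks with A771726 was 0.123% (0.0398 to 0.286), an interval apart from that of shared sites. Without peaks of a background over 10 times the lowest of their list, the share of shared sites with A771726 fell to 0.523% (0.320 to 0.807). That of other peaks was then 0.170% (0.0684 to 0.350), and the intervals overlapped.

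Strength did not order CDK9 overlap in a simple way. Over deciles of −log10 q of all DMSO DDX21 peaks, the share of shared sites on a CDK9 peak was 7.07% (5.03 to 9.62) in the sixth decile and 12.3% (10.2 to 14.8) in the eighth. In the strongest it was 6.37% (4.81 to 8.25). In the sixth decile the 309 peaks that were not shared had 5.50% (3.24 to 8.66). From the third decile to the seventh, where both kinds had over 50 peaks, the shared sites had the higher share in each decile, and in each the intervals overlapped. Overlap of intervals does not settle whether shared sites differ from other peaks of like strength. The deciles were not pooled, and a difference was not tested.

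**Figure D5:**
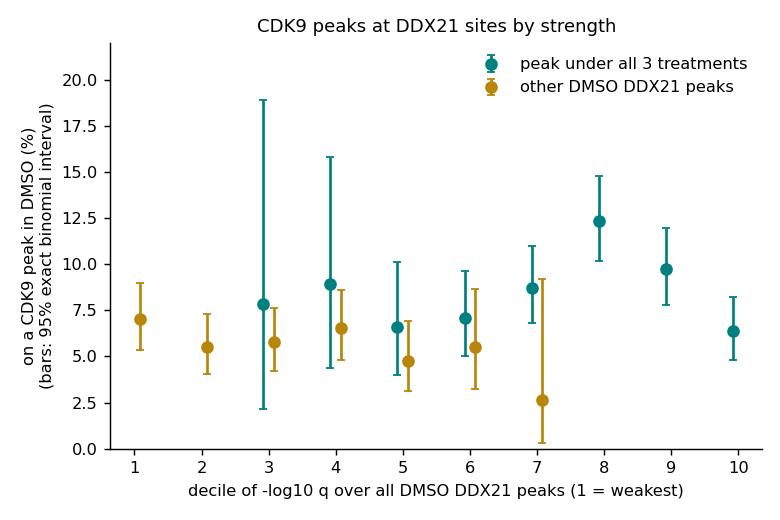
Share (percent) of DDX21 peaks on a CDK9 peak in DMSO by decile of −log10 q over all DMSO DDX21 peaks, for the shared sites and the other DMSO peaks, with exact binomial 95% intervals; groups under 50 peaks are left out. Shared sites reach 12.3% in the eighth decile and 6.37% in the strongest, and intervals of both kinds overlap from the third to the seventh.

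DDX21 ratios differed little between shared sites with and without CDK9 in DMSO. The median A771726 ratio was 0.413 (0.401 to 0.429) in the 374 sites with a CDK9 peak and 0.398 (0.393 to 0.402) in the 3870 without, and the nucleotides ratio was 0.930 (0.919 to 0.946) and 0.959 (0.955 to 0.964). The intervals for nucleotides do not overlap. Of the 374, 34 also had a CDK9 peak with A771726, or 9.09% (6.38 to 12.5), and 151 had one with nucleotides, or 40.4% (35.4 to 45.5). The whole CDK9 lists hold 8.38 A771726 peaks per 100 in DMSO, which is a ratio of list lengths and not a share of overlapping peaks. At the 240 other DMSO peaks with CDK9 the shares were 2.08% (0.680 to 4.79) with A771726 and 39.6% (33.4 to 46.1) with nucleotides. For A771726 the intervals of shared and other peaks do not overlap.

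A small set of shared sites carried both proteins under every treatment and departed from the rest with nucleotides. It held 33 sites, or 0.778% (0.536 to 1.09), beside 0.457% of all DMSO DDX21 peaks. At these 33 the DDX21 pileup in DMSO ran from 22 to 157 fragments, with a median of 89. The median DDX21 ratio was 0.542 (0.436 to 0.571) with A771726 and 0.721 (0.662 to 0.795) with nucleotides, against 0.400 and 0.957 over all shared sites. These intervals take sites to be independent, but 20 of the 33 lay in 6 stretches of sites within 500 kb, so they may be too narrow. Median nucleotides ratios per stretch, single sites included, ran from 0.427 to 1.32. The pileup with nucleotides was below DMSO at 31 of the 33, and at 28 with each pileup scaled to its library's lowest background, where 65.1% and 33.5% of all shared sites were below. Their median DMSO background was 10.1 fragments against 5.76. A DMSO pileup of 50 to 150 and a background under 10 were found at 11 of the 33 and at 1768 sites on no CDK9 peak. There the nucleotides ratio was 0.620 (0.548 to 0.682) and 0.913 (0.905 to 0.922), so the lower value was also seen at low background. The A771726 ratio was 0.471 (0.310 to 0.556) and 0.349 (0.344 to 0.354), with intervals that overlap.

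Joined where they lay within 500 kb, the 33 sites formed 19 stretches on 9 chromosomes, of which 13 held a single site and 6 held the other 20. The fullest held 5 sites, on chromosome 17 between 18965142 and 19093705, and a pair on chromosome 1, between 16840084 and 17223252 and between 147510589 and 148605094, held 4 each. CDK9 pileups had other upper limits than DDX21, of 256 (DMSO), 100 (A771726) and 258 (nucleotides) fragments, from shortest peaks of 128, 50 and 129 bp. The A771726 list of CDK9 is thus on another scale, and its pileups are given without a comparison of size. On chromosome 17 from 19092894 to 19093705 the pileups were 123, 63 and 77 fragments (DDX21) and 63, 27 and 60 (CDK9), in the order DMSO, A771726, nucleotides. From 19015276 to 19016089 they were 126, 70 and 76 for DDX21 and 62, 25 and 55 for CDK9. From 18966805 to 18967568 they were 132, 88 and 100 for DDX21 and 76, 23 and 84 for CDK9. DDX21 was thus between its A771726 and DMSO levels with nucleotides at all 3, while CDK9 with nucleotides lay near its DMSO level. The site from 18965142 to 18965823 differed, with 122, 89 and 88 for DDX21 and 76, 24 and 47 for CDK9. Over the 5 sites of this stretch DDX21 ran from 122 to 137 (DMSO), 63 to 89 (A771726) and 76 to 100 (nucleotides). On chromosome 1 from 16840084 to 16840911 DDX21 had 157, 87 and 112 fragments and CDK9 108, 42 and 100. The strongest of the 33 by DMSO −log10 q, on chromosome 22 from 43010754 to 43011693, had a higher ratio with nucleotides, 0.944, with DDX21 at 124, 27 and 117 fragments and CDK9 at 49, 12 and 46. It held 2 A771726 peaks of DDX21, and its ratio was 0.218 by longest overlap and 0.274 by nearest summit.

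Sites without an A771726 peak but with a nucleotides peak were set beside the shared sites for the return with nucleotides. Among sites with a DMSO pileup of 50 to 75 fragments, the median nucleotides ratio was 0.935 (0.914 to 0.957) in 588 shared sites and 0.875 (0.862 to 0.897) in 607 sites missing with A771726. With 75 to 100 fragments it was 0.906 (0.894 to 0.926) in 644 and 0.8625 (0.839 to 0.897) in 139, with intervals that overlap. Only in the lower of these 2 ranges did the intervals separate.

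Few sites lay near the edge of the rule by distance: of the 2936 sites that lacked only an A771726 peak, 2 missed one by 50 bp or less. Distance does not show how many sites lay near the calling threshold with A771726. The DMSO peaks that were not shared had a median DMSO pileup of 31 fragments, and the lowest pileup of any A771726 peak was 10. The smallest overlap with an A771726 peak was 3 bp, on chromosome 1 from 149804172 to 149804362, where the fold enrichment was 1.97 in DMSO and 4.67 with A771726. The next were 48 bp, on chromosome X from 52964134 to 52964598, and 71 bp, on chromosome 15 from 90358401 to 90358539. Just outside, the chromosome 1 peak from 149825040 to 149825230 missed an A771726 peak by 2 bp, with folds of 4.13 and 3.37, and the chromosome 20 peak from 3800792 to 3801079 missed one by 26 bp, with 3.58 and 13.5. The third, on chromosome 16 from 4588778 to 4588970, missed by 51 bp. For nucleotides the smallest overlap was 68 bp, at the same chromosome 1 site, and the smallest gap of a peak otherwise shared was 217 bp, on chromosome 1 from 149513870 to 149514276.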

How the data were processed

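DDX21 and CDK9 peaks came from 6 narrowPeak lists of 1 library each, and the 3 inputs were not analysed here. Per the submitters' processing notes, the tools were Bowtie and MACS2 (2.0) and the build hg19, while their roles, settings and control libraries are not stated there. The deposited fold enrichment is a ratio to local background, the deposited p and q are −log10 values, and the deposited score is 10 times −log10 q, rounded down. Pileup and background were recovered from fold and −log10 p for 100% of peaks (tolerance 0.001). This was tested on simulated data, where 1000 of 1000 pileups per DDX21 list were recovered. The partner in another list was the peak with the longest overlap. Shares have exact binomial (Clopper-Pearson) intervals, medians order-statistic intervals and single pileup ratios exact conditional binomial intervals, all of 95%. Pileups are not corrected for depth unless said.

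Named sites are the 5 with the best worst rank, the 5 highest and lowest pileup ratios among sites at or above the median DMSO pileup, the 5 widest, the 5 largest summit distances, the 5 largest gains and losses of rank, up to 10 on CDK9 under all 3 treatments, and 3 on each side of the rule. The sites and lists were chosen with earlier results of these data known. Genes, motifs and sequences are not given, since no hg19 genome or annotation was used here. Python 3.11.15, pandas 2.3.3, numpy 2.4.6, scipy 1.17.1 and matplotlib 3.10.9 were used.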

Additional observations from a re-analysis of the deposited data

How the results depend on the processing

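With 1 library per group no replicate could be left out and depth limits single sites to the counting intervals given. No paired analysis was possible because each group had 1 library and no result came from a test. Of 179 alternatives for values over all shared sites, 49 moved, 2 reversed and 128 did neither, and the cause was not tested. Of the 128, 113 stayed within the 95% interval, 7 counts of sites within 1.5 times the count and 8 values of rho within 0.05. Alternatives for pileup ratios were chosen after seeing the data. Dividing pileups by the lowest background of the list reversed nucleotides against DMSO, to a median ratio of 1.06 with 33.5% of sites lower, and moved the A771726 ratio to 0.418. Subtracting the background gave 0.382 for A771726, with 99.6% lower. Without sites near the pileup limit the ratios were 0.382 and 0.939.

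With −log10 q of at least 5, 52.2% of DMSO peaks were shared, the A771726 width was 250 bp, fold enrichments were 19.5, 9.83 and 18.5, and 95.1% of A771726 summits lay within 50 bp. CDK9 shares were then 6.08%, 0.544% and 4.13% at shared sites in DMSO, with A771726 and with nucleotides, and 3.78% and 2.57% at other peaks in DMSO and with nucleotides. Cutting every DDX21 list to the length of the shortest, by −log10 q, left 3749 sites, and 85.7% were shared, widths were 412, 258 and 452 bp, 29.7% were narrower with nucleotides, folds were 20.6, 10.5 and 19.5, 91.7% were lower with A771726, 95.3% and 97.2% of summits lay within 50 bp, and rho of fold was 0.683 and 0.739. Without peaks of high background, 48.1% were shared, the A771726 width was 239 bp, folds were 19.96 in DMSO and 18.7 with nucleotides, 92.8% were lower with A771726, pileup ratios were 0.392 and 0.949, and the CDK9 share with A771726 was 0.523%. Merging peaks within 1 kb gave 53.6% shared. Sites with a single partner each way had a nucleotides width of 426 bp and 94.4% and 96.6% of summits within 50 bp. Ranking by −log10 q gave rho of 0.887 and 0.938. A CDK9 peak of any treatment was found at 11.8% of shared and 7.65% of other peaks. Of 150 alternatives for single sites, 5 moved, all by taking the peak with the nearest summit, as given at each site except chromosome X from 153236273, where the ratio became 0.381. The planned windows around start sites and motifs were not run.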

Other observations

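The recovered backgrounds of the DDX21 lists fell on whole multiples of a step, within 0.005, for 66.7% of DMSO peaks, 64.0% of A771726 peaks and 71.1% of nucleotides peaks. The steps were 0.7196, 0.7996 and 0.6037 fragments. The median shared site stood at 8 steps in DMSO, 5 with A771726 and 10 with nucleotides.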
